A study of Petromyzon marinus with 12 samples.

Results

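Sea lamprey (Petromyzon marinus) embryos in which KMT5A had been targeted with CRISPR/Cas9 were compared with wildtype embryos at day 2 of development, by RNA-seq of whole embryos. The comparison rests on 4 of the 12 libraries of the study, chosen by their labels: 2 KMT5A knockout and 2 wildtype libraries at day 2. The other 8 libraries are 2 of KMT1 knockout embryos at day 2 and, at day 3, a pair for each of the same 3 genotypes. Eggs and sperm were stripped from mature adults, and embryos were kept at 18 °C. For the knockouts, Cas9 protein complexed with guide RNAs was injected together with fluorescein-labelled dextran, and embryos were screened for fluorescence 24 hours after fertilization. Whether wildtype embryos received an injection is not stated in the labels, which also give no guide sequences and no measure of how many cells were edited. About 100 snap-frozen embryos were pooled for each library. The parents of the 2 pools of a group are not given, so the p-values measure the spread between pools. That spread was estimated for each gene over all 12 libraries, so it also holds that of the KMT1 knockout and day 3 pools.

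KMT5A (also known as SET8 or PR-Set7) is the enzyme that places a single methyl group on lysine 20 of histone H4 in vertebrates and flies. In cultured human cells it is degraded during S phase through the replication clamp PCNA and the ubiquitin ligase CRL4-CDT2, and its mark is extended by KMT5B and KMT5C and read by proteins of chromatin compaction, replication licensing and DNA repair. Sea lamprey embryos discard part of their genome from somatic cells during early development, and the study examined histone methyltransferases in that setting. Early embryos first run on RNA laid down in the egg, which is cleared while the embryo's own genome comes into use. Gene roles given here are those known from other vertebrates, mostly human and mouse. No roles were assigned to gene models without a symbol.

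The 4 libraries held between 71641822 and 89061394 estimated counts, and the median absolute log2 ratio between the 2 libraries of a group was 0.100 for wildtype and 0.108 for the knockout. Levels are given as CPM, counts scaled to a common library total, after TMM scaling, which corrects for library composition. A gene was called changed at a Benjamini-Hochberg adjusted p below 0.05 in edgeR's quasi-likelihood test, fitted on all 12 libraries. The SE beside a log2 fold change is its absolute value divided by the square root of the F statistic of that test. In each library 7634 to 7823 of 22407 gene models were listed at 0 and only 22 to 24 at 1 to 3 counts, so a 0 beside a high count may be a failed estimate rather than absence. The results therefore rest mainly on the 13798 tested genes above 0 in all 4 libraries. Of 23 marker symbols of adult blood, liver, testis and muscle, only 8 were found in the annotation, so the others could not be checked. Of their 11 gene models 8 were at 0 in all 4 libraries, among them CKM, FGA, FGG, MYH1, TNNT3 and spata18. The summed level was 9.68 to 13.1 CPM in wildtype and 8.12 to 11.4 CPM in the knockout. Of 15 marker symbols of ectoderm, mesoderm and endoderm 10 were found, and 18 of their 23 models were above 0 in all 4 libraries. These markers summed to 954 to 971 CPM in wildtype and 953 to 1004 CPM in the knockout, with KRT8 and KRT18 at 0. None of these 18 was called in edgeR, while 3 had an unadjusted p below 0.05 and DESeq2 and limma each called 2. In bulk RNA, fewer cells of a type and less RNA per cell cannot be told apart.

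The level of the targeted gene itself did not differ detectably at day 2. KMT5A (PM11985; chromosome 21, 11963808-11985404, minus strand, 7 exons in the deposited annotation, whose assembly is not named) stood at 373 and 389 CPM in wildtype and 382 and 367 CPM in the knockout, or -0.02 on the log2 scale (SE 0.0662, edgeR adjusted p = 1). The ranges of the groups overlapped. At day 3 it stood at 197 and 208 CPM in wildtype and 74.5 and 84.6 CPM in the knockout, or -1.35 on the log2 scale (edgeR adjusted p = 6.25e-05), and the difference between the days passed the test at -1.33 (edgeR adjusted p = 0.000516). A transcript level does not show whether the transcript carries an edit, so the day 2 level does not check the label. KMT5A overlaps an unnamed gene model on the opposite strand, and whether the counting used strand is not given in the sources used here.

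In the day 2 knockout, more genes fell than rose, and most changes were small. Of the 13798 genes, 379 were called higher, a background of 2.75%, and 986 were called lower, a background of 7.15%, which together are 9.89%. The median level was 60.4 CPM for genes called higher, 68.9 CPM for genes called lower and 10.6 CPM for those not called. The background is not matched for level, and the part of level in the share of a list was not tested. The median called gene was 1.44-fold higher or at 0.736 of the wildtype level, and only 28 rose and 70 fell by 2-fold or more. The median over all 13798 genes was -0.04 on the log2 scale, with 6073 above and 7725 below 0. Among all 15615 tested genes 1417, or 9.07%, were called, 413 (2.64%) higher and 1004 (6.43%) lower. Without 1 library the count was 833 (without knockout replicate 1), 617 (without knockout replicate 2), 650 (without wildtype replicate 1) or 699 (without wildtype replicate 2), and scaling by library size alone gave 328. The share of calls that were higher was 29.1% here and 54.2% when only the 4 compared libraries were fitted, so the balance of rises and falls depends on which libraries enter the fit.

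The clearest group to fall was the cytosolic ribosomal proteins, the structural proteins of the ribosome that translates nuclear genes. Of 98 gene models, 88 were tested and 85 were above 0 in all 4 libraries; 80 of the 85 were called lower and none higher, and none was higher at an unadjusted p below 0.05 or in DESeq2 or limma. The share called was 94.1%, beside the background of 9.89%. The median log2 fold change of the 85 genes was -0.68, against -0.04 over all genes. Together the 85 genes held 1.17% and 1.15% of all counts in the wildtype libraries and 0.782% and 0.779% in the knockout libraries. Each knockout library was thus below each wildtype library by more than the gap between replicates. The count called lower was 66 to 73 without any 1 library and 69 with library size alone.

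Among the ribosomal proteins, RPL8, a component of the large subunit close to its catalytic centre, changed most. It stood at 216 and 216 CPM in wildtype and 68.7 and 69.8 CPM in the knockout, or -1.64 on the log2 scale (SE 0.0389, edgeR adjusted p = 3.40e-06). The knockout pools were alike and far below the wildtype pools, but the gene was among those chosen for no overlap of the groups. RPS16, a component of the small subunit, went from 94 and 96.7 CPM to 33.4 and 31.5 CPM (log2 fold change -1.56, SE 0.081, edgeR adjusted p = 0.000178). Both genes lie on chromosome 21, as KMT5A does. Off that chromosome, the 78 ribosomal protein genes called lower ranged from -1.01 to -0.25 on the log2 scale, with a median at 0.623 of the wildtype level. RPL28 went from 79.9 and 78.7 to 40.2 and 38.4 CPM and RPL7A from 208 and 209 to 108 and 109.6 CPM, both without overlap. They were picked among the called members with the largest changes, so the separation follows largely from the choice. Among the 5 members that were not called were gene models of FAU (chromosome 11), RPS27 (chromosome 26), RPS25 (chromosome 32) and RPS15 (chromosome 52). Their log2 fold changes were 0.16, -0.85, -0.05 and -0.14. Other models with these symbols were called lower, FAU at -0.75, RPS27 at -0.41 and RPS25 at -0.54 and -0.52. The uncalled models of FAU and RPS27 stood below 1 CPM, whereas those of RPS25 and RPS15 were well expressed. The RPS25 model stood at 142.8 and 137 CPM in wildtype and 135 and 136 CPM in the knockout. RPL8 overlaps CEP19 on the opposite strand and RPL28 overlaps SURF4. Ribosomal protein genes have processed copies in many genomes, and how reads that match several places were counted is not given in the sources used here.

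**Figure D1:**
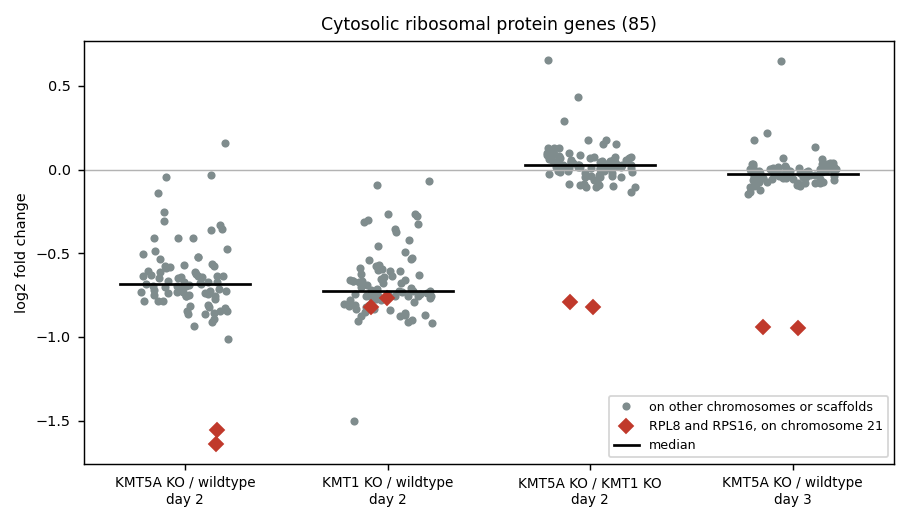
Log2 fold change of the 85 cytosolic ribosomal protein genes in 4 comparisons, 1 point per gene, with RPL8 and RPS16 of chromosome 21 as red diamonds. The genes sit below 0 at day 2 for both knockouts and near 0 between the knockouts and at day 3, where RPL8 and RPS16 stand apart near -0.8 and -0.9.

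Genes that build ribosomes fell alongside the ribosomal proteins. The ribosome biogenesis list, nucleolar genes that process ribosomal RNA and assemble the subunits, had 71 of 101 genes called lower and none higher. That is 70.3%, beside the background of 9.89%, and the median log2 fold change was -0.34. None was higher at an unadjusted p below 0.05, in DESeq2 or in limma. DDX54, a nucleolar RNA helicase, fell from 79.9 and 75.8 CPM to 39.6 and 38.9 CPM (log2 fold change -0.99, edgeR adjusted p = 0.000178). NSA2, which acts in assembly of the large subunit, fell from 125 and 129 to 72.4 and 72.9 CPM. RIOK2, a kinase of late small-subunit maturation, fell from 79.4 and 79.2 to 46 and 45.9 CPM. In each of the 3 genes the groups were apart by far more than the replicates. The 3 were picked among the called members with the largest changes, so this follows largely from the choice. Nucleolin (NCL), a major nucleolar protein and among the most abundant transcripts that fell, went from 2829 and 2771 to 2059 and 1982 CPM (log2 fold change -0.47, SE 0.0445, edgeR adjusted p = 0.000794). The count of biogenesis genes called lower was 39 to 55 without any 1 library, lowest without knockout replicate 2, and 13 with library size alone, where the median was -0.27. DDX54 overlaps NIPSNAP1 on the opposite strand.

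Many splicing factors fell too. Of 124 SR, hnRNP and snRNP genes, 47 were called lower and none higher, 37.9% beside the background of 9.89%, with a median of -0.23. At an unadjusted p below 0.05 2 were higher, in DESeq2 1 and in limma none. HNRNPL on chromosome 17, an RNA-binding regulator of splicing, fell from 96.1 and 97.5 to 56.9 and 53.8 CPM (log2 fold change -0.81, edgeR adjusted p = 0.000686), and its symbol is carried by other gene models too. The splicing factors held 2.87% and 2.81% of counts in wildtype and 2.51% and 2.5% in the knockout. The count called lower was 21 to 30 without any 1 library, lowest without wildtype replicate 1 or knockout replicate 2, and 6 with library size alone. A list of translation initiation and elongation factors, added after the values were seen, had 27 of 62 genes called lower and 1 higher, 45.2% together. In it the eIF3 subunits EIF3I and EIF3B fell, from 28.8 and 28.9 to 15.6 and 16.6 CPM and from 122 and 122 to 77.9 and 73.1 CPM, EIF3B overlapping BIRC5 and a further model on the opposite strand.

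Mitochondrial protein and proteasome genes were also called in the lower direction. Of 75 mitochondrial ribosomal proteins, 23 were called lower and none higher (median -0.26). Of 78 nuclear genes of the respiratory chain, 13 were called lower and none higher (median -0.18). These are 30.7% and 16.7%, beside the background of 9.89%. In both lists none was higher at an unadjusted p below 0.05, in DESeq2 or in limma. MRPL27 fell from 4.31 and 4.12 to 1.81 and 1.96 CPM, called only without wildtype replicate 2 among the fits that left out 1 library, and ATP5F1A on chromosome 13, the alpha subunit of ATP synthase, from 85.7 and 80.4 to 58.8 and 50.4 CPM. None of the 12 genes of the mitochondrial genome was called by edgeR, DESeq2 or limma or had an unadjusted p below 0.05, and their log2 fold changes lay between -0.09 and 0.04. Of 41 proteasome subunits, 10 were called lower and none higher, or 24.4%, and 40 had a log2 fold change below 0 (median -0.21). PSMC1, an ATPase subunit of the proteasome's regulatory particle, fell from 32.4 and 30.1 to 20.5 and 21.2 CPM. Without any 1 library these 3 lists had 9 to 15, 4 to 5 and 2 to 6 genes called lower, and with library size alone 5, 1 and 1.

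Heat shock proteins and other chaperones fell more often than they rose, with 46 of 65 below 0 and a median log2 fold change of -0.16. The share called was 23.1%, beside the background of 9.89%, which is not matched for level. Of 65 genes, 13 were called lower and 2 higher; without any 1 library 8 to 12 were called lower and none higher, and with library size alone 2 and none. Those that fell included CCT7 and CCT5, subunits of the chaperonin that folds actin and tubulin, from 74.8 and 80.7 to 53.4 and 51.9 CPM and from 136 and 128 to 92.8 and 88.2 CPM. DNAJA2, a co-chaperone of HSP70, fell from 292 and 302 to 207 and 206 CPM (log2 fold change -0.52, SE 0.0301, edgeR adjusted p = 0.000178). Both genes that carry the symbol HSPA8, the constitutive HSP70, changed, in opposite directions. The abundant one on chromosome 32 fell from 2524 and 2447 to 1869 and 1832 CPM, and the one on chromosome 74 rose from 40.4 and 42.2 to 72 and 68 CPM. The rise on chromosome 74 was no longer called in any of the 4 fits that left out 1 library. Where 2 gene models share a symbol, reads may have been split between them.

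**Figure D2:**
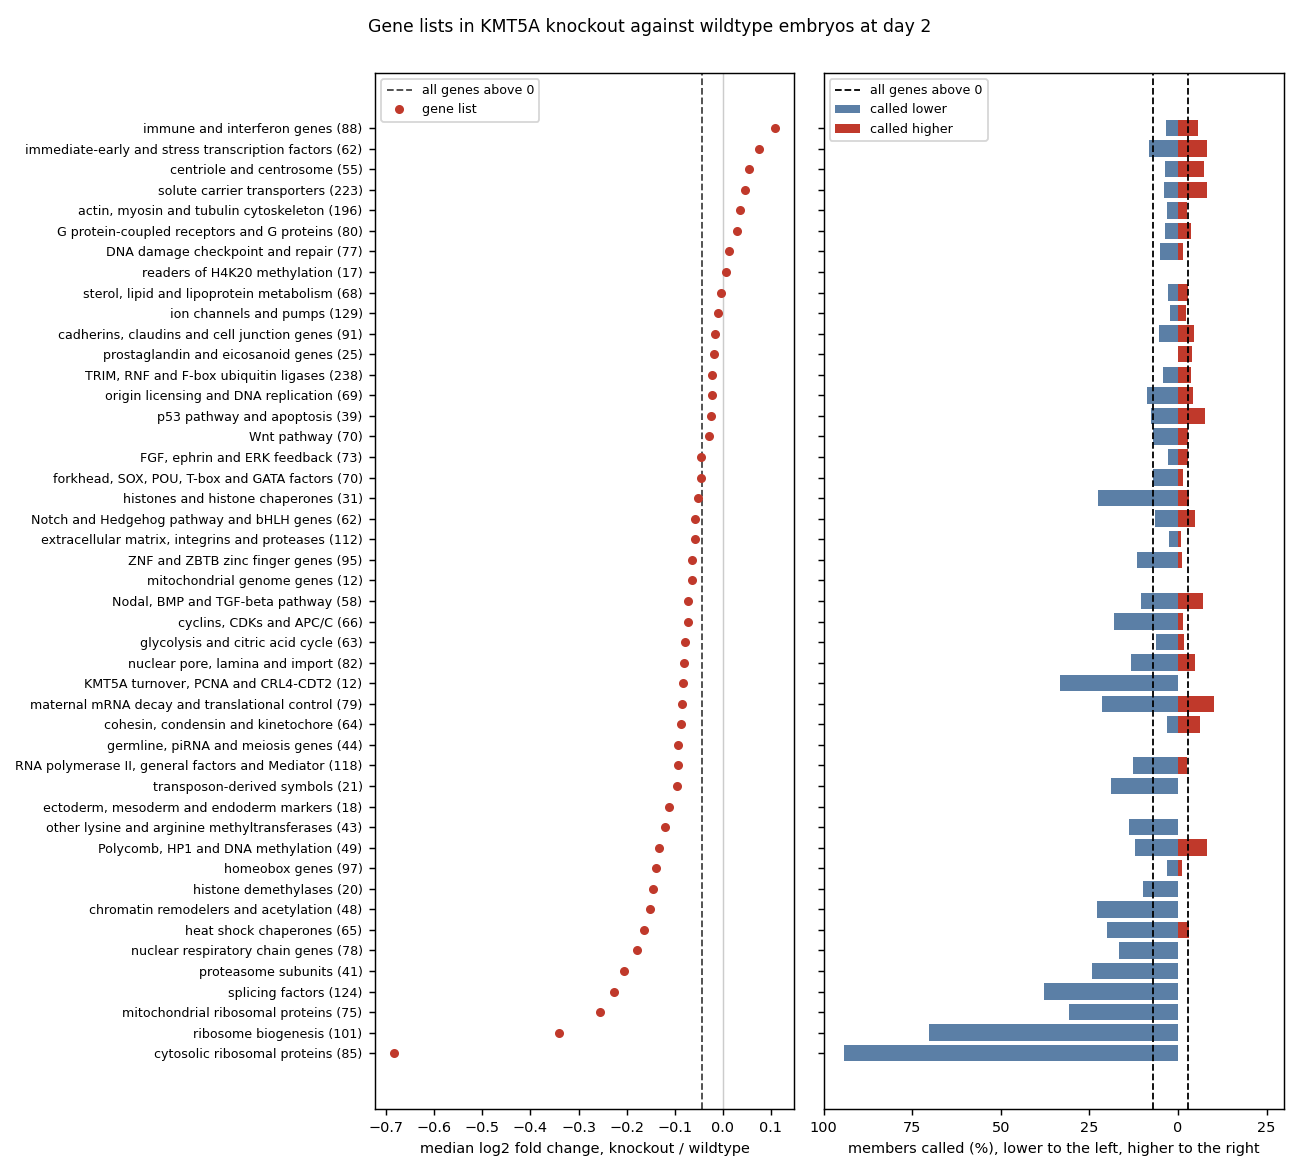
Gene lists with at least 10 members above 0, ordered by their median. The left panel gives the median log2 fold change of the knockout against wildtype with the median of all genes as a dashed line, and the right panel the percentage of members called lower and higher with the background as dashed lines; cytosolic ribosomal proteins (median -0.68, 94.1% called) and ribosome biogenesis (median -0.34, 70.3%) stand farthest from the rest.

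**Figure D3:**
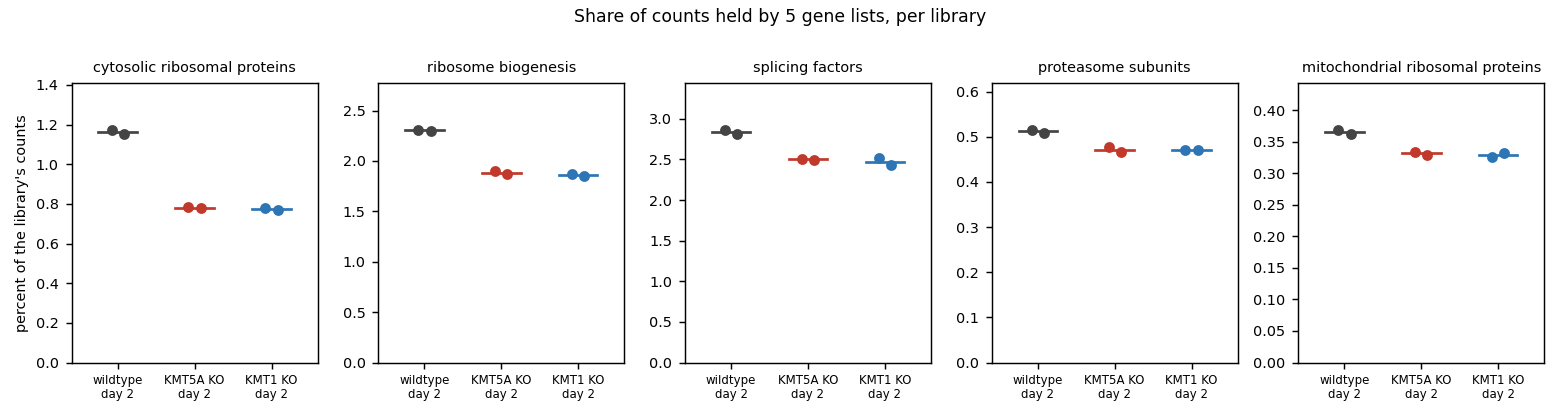
Percentage of each library's counts held by 5 gene lists at day 2, 1 point per library and the mean as a line, for wildtype, KMT5A knockout and KMT1 knockout. In all 5 lists both KMT5A knockout libraries lie below both wildtype libraries, for the ribosomal proteins at 0.782% and 0.779% against 1.17% and 1.15%.

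The strongest single rise was that of PTGS2, cyclooxygenase 2, which makes the precursor of prostaglandins. PTGS2 (chromosome 50, 3599016-3626279, plus strand) stood at 11.8 and 8.79 CPM in wildtype and 182 and 172 CPM in the knockout, 17.2-fold higher (log2 fold change 4.10, SE 0.23, edgeR adjusted p = 0.000178). It was low in both wildtype pools and high in both knockout pools. The genes with the largest changes were, however, chosen among those whose groups did not overlap. The KMT1 knockout pools held 186 and 142 CPM, and at day 3 the KMT5A comparison gave a log2 fold change of 0.06. Of 25 prostaglandin and eicosanoid genes it was the only one called by edgeR, and the list's median was -0.02. Of the list, 1 gene was lower at an unadjusted p below 0.05; DESeq2 called none lower and limma 1.

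LONRF1, which carries RING finger and LON domains, rose from 8.58 and 10.8 CPM to 69.1 and 62.5 CPM (log2 fold change 2.77, SE 0.244, edgeR adjusted p = 0.000643); it overlaps PAICS on the opposite strand. CHAC1, which breaks down glutathione and is induced in stressed mammalian cells, rose from 18.2 and 17.7 to 45.8 and 44.3 CPM. SLC35D1, a sugar-nucleotide transporter, went from 53 and 43 to 113 and 113 CPM, where it overlaps YIPF1 and ZNF367. These genes too were chosen among those whose groups did not overlap, so each knockout pool lay above each wildtype pool by that choice.

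Other large rises were in genes of low level. RNASET2, a lysosomal ribonuclease, rose from 2.6 and 2.98 to 6.71 and 7.2 CPM and B3GNT3, a glycosyltransferase, from 3.52 and 3.41 to 8.57 and 10.7 CPM. PXN (chromosome 5), the focal adhesion adaptor paxillin, went from 2.05 and 2.02 to 5.26 and 6.41 CPM. TGM1 on chromosome 63, a transglutaminase, AMDHD2, an amino-sugar deacetylase, and not2l, a homeobox gene of the notochord factor family, rose by 1.49, 1.46 and 1.26 on the log2 scale from wildtype levels of 0.785 to 1.48 CPM. Of the 12 genes with the largest rises, PTGS2, LONRF1, SLC5A8 on chromosome 65 and SLC26A5 stayed called whichever of the 4 libraries was left out. PXN, TGM1, B3GNT3, AMDHD2, CHAC1 and SLC35D1 were called in none of those 4 fits, RNASET2 only without knockout replicate 1, and not2l only without wildtype replicate 1 or knockout replicate 1.

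Membrane transporters changed in both directions. Of 223 solute carrier genes, 18 were called higher, beside a background of 2.75%, and 9 lower; the 12.1% called in all was near the background of 9.89%, and the median was 0.05. SLC5A8 on chromosome 65, a sodium-coupled carrier of short fatty acids and lactate, rose from 5.07 and 4.76 to 10.8 and 13.1 CPM. The other model with this symbol, on chromosome 21, was called lower, but it was listed at 0 in a library. SLC26A5 (prestin) rose from 5.38 and 4.74 to 11.3 and 12.8 CPM. SLC12A3 on chromosome 25, a sodium chloride cotransporter, gave the largest fall of all named genes, from 16.2 and 17.8 CPM to 3.56 and 3.15 CPM (log2 fold change -2.34, SE 0.134, edgeR adjusted p = 0.000178). The same gene stood at 3910.0 and 3768 CPM in the wildtype pools of day 3. SLC6A8 on chromosome 14, the creatine transporter, fell from 60.6 and 62.8 to 30.1 and 32.2 CPM. Without any 1 library 7 to 8 transporters were called higher and 6 to 7 lower, and with library size alone 6 and 2.

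The 12 largest falls included, besides SLC12A3, RPL8 and RPS16, several surface and secreted proteins. CXCR4 on chromosome 19, a chemokine receptor that guides migrating cells, fell from 20.7 and 21.7 CPM to 5.13 and 6.87 CPM (log2 fold change -1.82, SE 0.125, edgeR adjusted p = 0.000308). THBS1 on chromosome 17, a secreted matrix protein, fell from 8.15 and 8.66 to 2.51 and 2.35 CPM, where it overlaps FSIP1. GPR61, an orphan receptor, went from 5.75 and 6.72 to 2 and 2.28 CPM and KCNA3, a potassium channel on chromosome 21, from 28.8 and 25.3 to 9.63 and 9.54 CPM. These 4 genes were chosen among those whose groups did not overlap, so both knockout pools lay below both wildtype pools by that choice.

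The rest of the 12 largest falls were CTTNBP2NL at -1.74, CFLAR at -1.70, GNPTAB at -1.68, CBY1 at -1.60 and LYRM1 at -1.56 on the log2 scale. GNPTAB, which prepares lysosomal enzymes for sorting, went from 7.71 and 13.5 to 4.13 and 2.5 CPM, so its wildtype pools differed from each other too. SLC12A3, CXCR4, THBS1, RPL8, RPS16 and LYRM1 stayed called whichever library was left out. CTTNBP2NL and KCNA3 were called only without wildtype replicate 2, CFLAR only without knockout replicate 2, and GNPTAB, CBY1 and GPR61 only without wildtype replicate 1.

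Among the called genes with the highest CPM the changes were modest. HASPIN, the kinase that marks histone H3 at mitotic centromeres, rose from 1037 and 1035 to 1321 and 1306 CPM (log2 fold change 0.34, SE 0.038, edgeR adjusted p = 0.00151). USP15 on chromosome 14, a deubiquitinase, rose from 935 and 919 to 1348 and 1309 CPM. SAMD4A on chromosome 29 (Smaug), which represses and clears maternal messages in flies, rose from 773 and 808 to 958 and 955 CPM, and PPP4R2, a phosphatase subunit, from 645 and 652 to 819 and 796 CPM. TGIF1, a homeobox repressor of Nodal and TGF-beta signalling, fell from 8807 and 8760.2 to 6255 and 6365 CPM (log2 fold change -0.48, SE 0.0689, edgeR adjusted p = 0.00508). H2AX on chromosome 3, the histone variant phosphorylated at DNA breaks, fell from 2032 and 2096 to 1661 and 1554 CPM, a call kept only without knockout replicate 1. No replicate pair of these genes overlapped the other group, which follows largely from their choice among called genes.

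**Figure D4:**
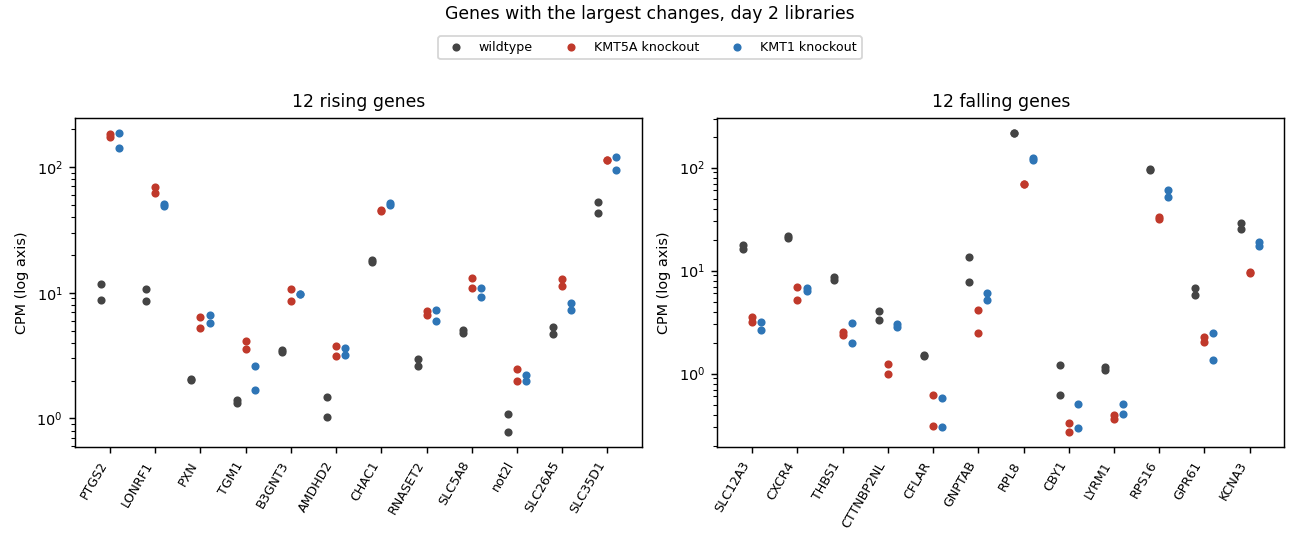
Level in CPM on a log axis of the 12 rising and 12 falling genes with the largest changes at day 2, 1 point per library, for wildtype, KMT5A knockout and KMT1 knockout. PTGS2 rises from 11.8 and 8.79 to 182 and 172 CPM. For RPL8, RPS16 and KCNA3 of chromosome 21 the KMT1 knockout points lie between the wildtype and the KMT5A knockout points. The same holds for LONRF1, SLC26A5, TGM1, CTTNBP2NL, GNPTAB and LYRM1, which lie on other chromosomes.

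Of 8 methyltransferases of H4K20 and H3K9, 1 was called higher and 1 lower, which is 25% beside the background of 9.89%. SUV39H2, an H3K9 methyltransferase, rose from 119.7 and 119 to 159 and 174 CPM (log2 fold change 0.48, SE 0.0867, edgeR adjusted p = 0.0134). It kept the call only without knockout replicate 1. PRDM2 on chromosome 20 fell from 40.1 and 42.5 to 29.5 and 30.3 CPM, a call kept without wildtype replicate 1 or knockout replicate 2. KMT5B, which extends the KMT5A mark, has a model on chromosome 24 at 164 and 168 CPM in wildtype and 200.1 and 192 CPM in the knockout (log2 value 0.24, edgeR adjusted p = 0.0619), and a model on chromosome 7 with a log2 fold change of -0.12. Neither model of KMT5B passed the test.

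Of 12 genes that control KMT5A turnover, 4 were called lower and none higher, 33.3% beside the background of 9.89%. In the list 10 had a log2 fold change below 0. Higher at an unadjusted p below 0.05 were 2, and DESeq2 and limma each called 1 higher. USP7, a deubiquitinase, fell from 85.3 and 89.1 to 59.1 and 58.8 CPM (log2 fold change -0.56, SE 0.0637, edgeR adjusted p = 0.00162). PCNA, the replication clamp to which KMT5A binds for its destruction, fell from 225 and 215 to 168 and 175 CPM, and SKP1, an adaptor of SCF ubiquitin ligases, from 239.7 and 226 to 194 and 185 CPM. PCNA lost the call without wildtype replicate 1 or knockout replicate 1, and SKP1 without wildtype replicate 1 or knockout replicate 2. DTL, which is CDT2 itself, had a log2 fold change of -0.01 at 305 and 309 CPM before and 310.3 and 302 CPM after knockout. PCNA overlaps CDS2 and DTL overlaps INTS7 on the opposite strand.

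No reader of H4K20 methylation was called among 17 in edgeR, while 3 had an unadjusted p below 0.05 and DESeq2 and limma each called 3. TP53BP1, a repair protein that binds the dimethyl form, stood at 113 and 107 CPM in wildtype and 109.5 and 112 CPM in the knockout. ORC1, the origin recognition subunit that binds the same mark, stood at 69.7 and 71.7 and 71.5 and 70.2 CPM. Their groups overlapped.

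Polycomb repressive complex 2 (PRC2), which methylates H3K27, had its 3 core genes lower. EZH2, the catalytic subunit, went from 192 and 200.1 to 154 and 158 CPM, SUZ12 from 87.9 and 89.3 to 60.6 and 57.1 CPM and EED from 89.8 and 85.2 to 62 and 68.3 CPM. MTF2 on chromosome 59, an accessory subunit that brings the complex to DNA, rose from 48.3 and 50.4 to 76.5 and 79.7 CPM. Only SUZ12 (log2 fold change -0.59, edgeR adjusted p = 0.00112) stayed called without any 1 library; EZH2 was called only without wildtype replicate 1, and EED and MTF2 in none of the 4 fits. Of 49 Polycomb, HP1 and DNA methylation genes as a list, 4 were called higher and 6 lower, so the calls went both ways. Together they are 20.4%, beside the background of 9.89%. EZH2 overlaps CUL1 and EED overlaps RPS6KA3 on the opposite strand.

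Of 48 chromatin remodelers and acetylation genes, 11 were called lower and none higher, 22.9% beside the background of 9.89%. The other 37 were not called, and 13 of the list had a log2 fold change above 0. In the list 1 was higher at an unadjusted p below 0.05 and none in DESeq2 or limma. INO80, a remodeling ATPase, fell from 33 and 34.9 to 18.4 and 20.5 CPM and HDAC3, a histone deacetylase, from 45.6 and 46.7 to 31.8 and 29.3 CPM. Without any 1 library 5 to 9 of the list were called lower, and with library size alone 2. Of 43 other lysine and arginine methyltransferases 6 were called lower and none higher, 14% beside the background of 9.89%. None was higher at an unadjusted p below 0.05 or in DESeq2 or limma. SETD6, a methyltransferase known to act on non-histone proteins, fell from 25.6 and 25.3 to 11.9 and 12.3 CPM (log2 fold change -1.08, SE 0.0913, edgeR adjusted p = 0.000534), where it overlaps MTSS1 and ZFAT. Of 20 histone demethylases 2 were called lower and none higher, 10% and thus near the background of 9.89%. Among them 1 was higher at an unadjusted p below 0.05 and in DESeq2 and limma. Of 31 histones and histone chaperones, 1 was called higher and 7 lower, 25.8% together beside the background of 9.89%.

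Genome duplication and damage genes showed single changes rather than shifts. Of 69 replication genes 3 were called higher and 6 lower, and of 77 repair and checkpoint genes 1 was called higher and 4 lower. These are 13% and 6.49%, beside the background of 9.89%. RRM2, which supplies deoxynucleotides, rose from 153 and 151 to 229 and 234 CPM (log2 fold change 0.61, SE 0.0465, edgeR adjusted p = 0.000443). CDC7, a kinase that fires origins, went from 9.27 and 8.31 to 16.8 and 20.1 CPM, called in none of the fits that left out 1 library. HUS1, a member of the 9-1-1 checkpoint clamp, rose from 11.2 and 11.6 to 20.2 and 20.7 CPM, called only without knockout replicate 1. APEX1, the abasic site nuclease of base excision repair, fell from 158 and 154 to 99.3 and 100.3 CPM and overlaps OSGEP.

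The p53 pathway and apoptosis list had 3 genes called higher and 3 lower of 39, 15.4% beside the background of 9.89%. MCL1 on chromosome 52, which protects cells from apoptosis, rose from 228 and 221 to 322 and 317 CPM. cdkn1b, a cyclin-dependent kinase inhibitor, went from 1.65 and 1.92 to 3.13 and 3.51 CPM, called only without knockout replicate 1. CDKN1A, the p53 target p21, stood at 4.47 and 4.02 CPM in wildtype and 5.26 and 4.85 CPM in the knockout, a log2 fold change of 0.25 with an SE of 2.02 (edgeR adjusted p = 1). Its groups did not overlap, but the SE, which draws on the spread in all 12 libraries, was wide and the gene was not called.

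Cyclins, cyclin-dependent kinases and the anaphase-promoting complex had 12 of 66 genes called lower and 1 higher, 19.7% together beside the background of 9.89%. The one that rose was CCNE1 on chromosome 25, cyclin E1 of entry into S phase, from 214 and 207 to 315 and 320.1 CPM (log2 fold change 0.59, SE 0.0446, edgeR adjusted p = 0.000431). CDC25B on an unplaced scaffold, a phosphatase that activates mitotic CDK1, fell from 31.7 and 28.4 to 16.1 and 14.6 CPM. Without any 1 library 5 to 7 of the list were called lower, and with library size alone 1. Of 64 cohesin, condensin and kinetochore genes 4 were called higher and 2 lower, and of 55 centriole and centrosome genes 4 and 2. These are 9.38% and 10.9%, near the background of 9.89%.

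Genes that clear or silence maternal messages changed in both directions. Of 79, 8 were called higher and 17 lower, 31.6% together, beside the background of 9.89%. PARN, a deadenylase, rose from 63 and 61.1 to 113 and 116 CPM (log2 fold change 0.89, SE 0.0511, edgeR adjusted p = 0.000178). At day 3 PARN was lower in the knockout, at -0.40 on the log2 scale (edgeR adjusted p = 0.00476). DCP1B, a decapping factor, went from 158 and 162 to 233 and 231 CPM, called in no fit that left out 1 library, and BTG1 on chromosome 30, which recruits deadenylases, from 84.1 and 76.3 to 119 and 123 CPM, called only without wildtype replicate 1. Without any 1 library 2 to 4 of the list were called higher and 5 to 9 lower, and with library size alone 2 and 0. None of 44 germline, piRNA and meiosis genes was called in edgeR, while 3 had an unadjusted p below 0.05, DESeq2 called 2 and limma 4.

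Immediate-early and stress transcription factors had 5 of 62 called higher and 5 lower, 16.1% together beside the background of 9.89%. EGR1 went from 3.2 and 2.83 to 1.76 and 1.28 CPM, called only without knockout replicate 1, and FOS on chromosome 29 from 3.52 and 3.8 to 5.51 and 5.86 CPM, which lost the call without wildtype replicate 1 or knockout replicate 2. Both are quickly induced by growth signals in mammalian cells, and here they moved in opposite directions.

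Developmental regulators changed in small numbers. Of 97 homeobox genes 1 was called higher and 3 lower, and of 70 forkhead, SOX, POU, T-box and GATA factors 1 and 5. These are 4.12% and 8.57%, beside the background of 9.89%. OTX2 on chromosome 6, a head and forebrain factor, fell from 18 and 19.3 to 11.9 and 12.9 CPM, called only without wildtype replicate 1. SOX11, a factor of neural precursors, fell from 87.5 and 92 to 65.3 and 67.7 CPM (log2 fold change -0.43, edgeR adjusted p = 0.00403). For both factors the knockout pools were below both wildtype pools, which follows largely from their choice among called genes.

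Of 70 Wnt pathway genes 2 were called higher and 5 lower, 10% and thus near the background of 9.89%. TCF7L2 on chromosome 41, the nuclear partner of beta-catenin, fell from 10.2 and 11 to 3.78 and 4.53 CPM (log2 fold change -1.35, SE 0.126, edgeR adjusted p = 0.000759). Of 58 Nodal, BMP and TGF-beta genes 4 were called higher and 6 lower, 17.2% together. In this pathway ACVR1 on chromosome 4, a BMP receptor, fell from 26.5 and 27.8 to 12.4 and 14.1 CPM and ID2 on chromosome 15, a direct BMP target in mammals, from 41.9 and 41.8 to 22.4 and 25.2 CPM. SMAD4 on chromosome 13, the SMAD shared by both branches, rose from 139 and 143 to 206 and 209.6 CPM. ACVR1, ID2 and SMAD4 were picked among the called members with the largest changes, and the median of the list was -0.07. They give no direction for the pathway. The FGF, ephrin and ERK list had 2 higher and 2 lower of 73, and Notch, Hedgehog and bHLH genes 3 and 4 of 62. These are 5.48% and 11.3%.

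The remaining lists are given by their counts. RNA polymerase II, general factors and Mediator had 3 higher and 15 lower of 118, and nuclear pore, lamina and import genes 4 and 11 of 82. Zinc finger genes of the ZNF and ZBTB families had 1 higher and 11 lower of 95. Transposon-derived symbols had 4 lower and none higher of 21, with 1 higher at an unadjusted p below 0.05, in DESeq2 and in limma. Glycolysis and citric acid cycle enzymes had 1 higher and 4 lower of 63, and sterol and lipid genes 2 and 2 of 68. Ion channels had 3 and 3 of 129, G protein-coupled receptors 3 and 3 of 80, cadherins and junction genes 4 and 5 of 91, and extracellular matrix genes 1 and 3 of 112. The cytoskeleton list had 5 and 6 of 196, immune genes 5 and 3 of 88, and TRIM, RNF and F-box ubiquitin ligases 9 and 10 of 238. Ion channel, extracellular matrix, cytoskeleton, lipid, glycolysis, ubiquitin ligase and G protein-coupled receptor genes had 3.57% to 7.98% of members called, beside the background of 9.89%. RNA polymerase II and Mediator genes had 15.3% called, nuclear pore genes 18.3%, zinc finger genes 12.6% and transposon-derived symbols 19%. Junction genes had 9.89% and immune genes 9.09%.

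The KMT1 knockout embryos of the same day, made and screened in the same way per the labels, allow the knockouts to be set against each other. The KMT1 comparison shares the 2 wildtype libraries, so its values are only given side by side. Against wildtype the KMT1 knockout had a median log2 fold change of -0.73 for cytosolic ribosomal proteins, where the KMT5A knockout had -0.68, and of -0.33 for ribosome biogenesis, where the KMT5A knockout had -0.34. The ribosomal proteins held 0.779% and 0.767% of counts in the KMT1 knockout libraries. Set against each other directly, the knockouts differed in 23 of 15615 genes, 0.147%, of which 2 (0.0128%) were higher and 21 (0.134%) lower in the KMT5A knockout; 423 genes had an unadjusted p below 0.05. This count was 3 when only genes above 0 in every compared library were tested and 103 in DESeq2. Without 1 library it was 68 (KMT5A knockout replicate 1), 33 (KMT5A knockout replicate 2), 41 (KMT1 knockout replicate 1) or 25 (KMT1 knockout replicate 2). Of the 14005 genes above 0 in those 4 libraries, 9, or 0.0643%, were called.

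Of these 9 genes, 7 lie on chromosome 21 and all 7 were lower in the KMT5A knockout. RPL8 stood at 125 and 119.7 CPM in the KMT1 knockout, between the wildtype and the KMT5A knockout levels, and differed between the knockouts by -0.82 on the log2 scale (SE 0.0382, edgeR adjusted p = 0.000288). RPS16 stood at 60.05 and 52.1 CPM there, a difference of -0.79 (edgeR adjusted p = 0.0143). The others with a symbol were GVQW3 at -0.54, FKBP5, a co-chaperone of steroid receptors, at -0.35, and EIF4G2, a translation initiation factor, at -0.27. EIF4G2 went from 549.6 and 536 CPM in wildtype to 403 and 399.9 CPM in the KMT1 knockout and 335 and 331 CPM in the KMT5A knockout, and FKBP5 from 197 and 190.3 to 144 and 152 and 117 and 115 CPM. In all 7 genes both KMT5A knockout pools lay below both KMT1 knockout pools, which follows largely from their choice by this test. The KMT5A knockout pools also lay below both wildtype pools. RPL8 was called in 12 of 13 alternative settings and RPS16 in 9, but GVQW3 in 3, FKBP5 and EIF4G2 in 4 each, and the 2 models without a symbol in 4 and 5.

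Off chromosome 21, 2 genes were called, both higher in the KMT5A than in the KMT1 knockout. The creatine transporter SLC6A8 stood at 19 and 18 CPM in the KMT1 knockout against 30.1 and 32.2 CPM in the KMT5A knockout (log2 difference 0.75, SE 0.0601, edgeR adjusted p = 0.00428), and was below the wildtype in both. It was called in 11 of 13 settings. HSP90AB1 on an unplaced scaffold, a cytosolic HSP90, stood at 6.11 and 6.39 CPM in wildtype pools, 5.47 and 4.98 CPM in KMT5A knockout pools and 1.94 and 2.4 CPM in the KMT1 knockout, and was called in 3 of 13.

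The other genes of chromosome 21 were grouped by their side of KMT5A. Toward lower coordinates 182 genes were above 0 in the 4 libraries, and 29 were called lower and 3 higher against wildtype, beside backgrounds of 7.15% and 2.75%, with a median of -0.11 that was -0.04 with library size alone; in the KMT1 comparison the median there was -0.06. Between the knockouts, 147 of 180 genes on that side had a log2 difference below 0, with a median of -0.12 and 7 called lower. The median stayed between -0.14 and -0.10 in all 13 settings. Toward higher coordinates the direct median was -0.04 over 32 genes, with none called lower in edgeR, DESeq2 or limma and 1 at an unadjusted p below 0.05. On all other chromosomes and scaffolds it was -0.00 over 13792 genes, with none called lower in edgeR or limma, 18 in DESeq2 and 146 at an unadjusted p below 0.05. Among 79 chromosomes with at least 20 genes, chromosome 21 had the lowest direct median at -0.098, not far below chromosome 74 at -0.081. The others ranged from -0.081 to 0.048.

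Among ribosomal proteins, the 2 on chromosome 21 differed between the knockouts by -0.82 and -0.79, while the 83 elsewhere ranged from -0.13 to 0.66 with none called by edgeR, DESeq2 or limma and 4 at an unadjusted p below 0.05. The day 3 libraries are on neither side of the day 2 comparisons, though they enter the same fit. At day 3 the lower-coordinate side had a median of -0.68 against wildtype over 143 genes, with 118 below 0 and 71 called lower. Among all genes above 0 in the day 3 libraries compared, 2.11% were called lower. The median of that side was -0.68 to -0.66 without any 1 library. Within 2 Mb of KMT5A on that side it was -0.27 over 26 genes, with 15 below 0 and 6 called lower. In the 2 Mb bins farther out on that side the medians ran from -0.79 to -0.71. The higher-coordinate side had a day 3 median of -0.17 over 33 genes with 1 called lower, and all other chromosomes -0.01. The first day 3 knockout library stands apart in composition, since 1 gene holds 7.82% of its counts, but the chromosome 21 median hardly moved without it.

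**Figure D5:**
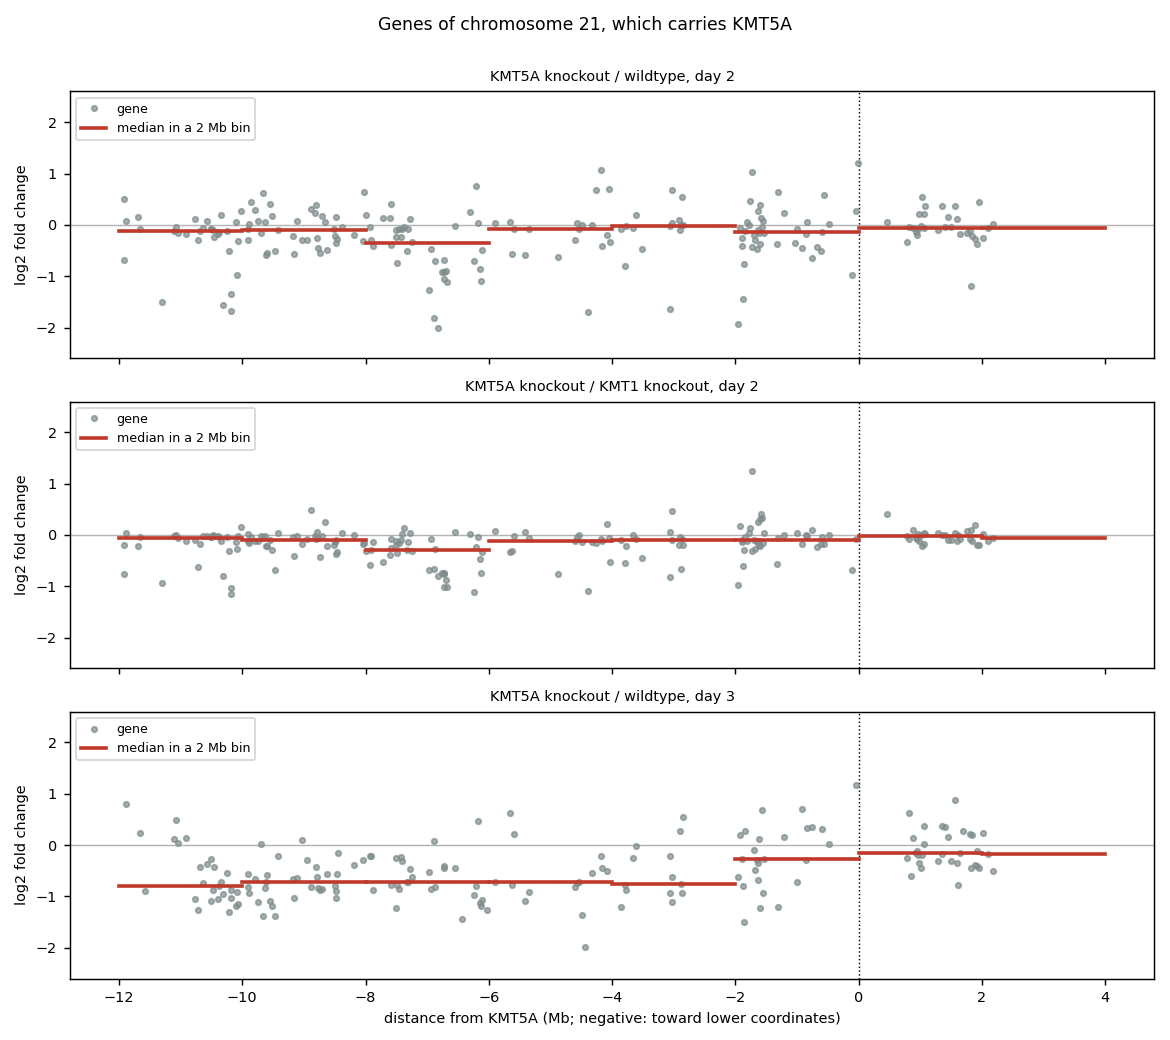
Log2 fold change of genes on chromosome 21 against their distance from KMT5A in Mb, 1 point per gene with medians of 2 Mb bins as lines, for the KMT5A knockout against wildtype at day 2, against the KMT1 knockout at day 2 and against wildtype at day 3. Toward lower coordinates the medians are -0.11, -0.12 and -0.68, and toward higher coordinates -0.06, -0.04 and -0.17. At day 3 the bin next to KMT5A toward lower coordinates has a median of -0.27, and those farther out -0.79 to -0.71.

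Most genes called at day 2 were not called at day 3. That comparison shares no compared library with this one, though both come from the fit on all 12 libraries. Of 369 genes higher at day 2 and above 0 in all 8 libraries, 31 were also called higher at day 3, which is 8.40% of the day 2 list and 6.46% of the 480 genes higher at day 3. Of 984 genes lower at day 2, 44 were also lower at day 3, 4.47% of the day 2 list and 18.0% of the 244 at day 3. Opposite calls were made for 26 and 17 genes. Of 11658 genes above 0 in the 4 day 3 libraries, the background was 6.3% called, 4.19% higher and 2.11% lower.

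The difference between the days was tested directly and called in 1399 of 11157 genes, 12.5%, or in 1507 (9.65%) of all 15615 tested genes. That count fell to 685 or 707 without wildtype replicate 1 or 2 of day 2, 918 or 710 without knockout replicate 1 or 2 of day 2, and 889 or 859 without wildtype replicate 1 or 2 of day 3; it was 1194 without knockout replicate 1 and 2245 without knockout replicate 2 of day 3. It was called for 233 of the 369 genes that rose at day 2 and for 575 of the 984 that fell. Among cytosolic ribosomal proteins 73 of 85 differed between the days; their day 3 median was -0.03, or -0.13 without the first day 3 knockout library, in which case 6 were called. Ribosome biogenesis genes differed for 52 of 101 and splicing factors for 30 of 119. Ribosomal proteins took up far more of the library at day 3, 6.81% and 6.96% of counts in wildtype and 5.56% and 6.30% in the knockout. After TMM scaling their summed level at day 3 was 75020 and 76400 CPM in wildtype and 78000 and 68890 CPM in the knockout, so the groups overlapped. Named genes called in the same direction on both days included OTX2, at -0.61 at day 3 (edgeR adjusted p = 0.0136), cdkn1b at 1.80 (0.000894) and MCL1 at 0.36 (0.00296), each an edgeR adjusted p. Named genes of chromosome 21 were also called lower on both days. At day 3 RPL8 was at -0.94, RPS16 at -0.95, EIF4G2 at -0.82, FKBP5 at -0.77 and GVQW3 at -0.78 (edgeR adjusted p at most 0.000831).

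Genes listed at 0 in a whole group are given apart, as a 0 may be a failed estimate, and no fold is drawn from them. Of the 1417 calls, 52 involved a gene listed at 0 in a library, 34 with 0 in both wildtype libraries and 18 with 0 in both knockout libraries. LTBP1 on chromosome 17, which stores TGF-beta in the matrix, was at 14.8 and 14.1 CPM in wildtype, 0 in both KMT5A knockout pools and 13.2 and 10.6 CPM in the KMT1 knockout. SNX25, a sorting nexin, was at 38.9 and 38.9 CPM in wildtype and 0 in both KMT5A knockout pools, and 38.9 and 40.2 CPM in the KMT1 knockout. UBR7 was at 51.6 and 49.3 CPM in the wildtype pools and 0 in both KMT5A knockout pools, but 49.97 and 0 CPM in the 2 KMT1 knockout pools, so the 0 also appears in 1 of 2 replicates.

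In the other direction CREB1 on chromosome 4, a cAMP-responsive factor, was at 0 in both wildtype pools and at 6.99 and 47.7 CPM in the knockout pools. A RASSF1-domain gene on chromosome 46 was at 0 in wildtype and 4.78 and 7.25 CPM in the knockout, and SUPT7L, a subunit of a histone acetyltransferase complex, at 0 and 6.64 and 5.23 CPM. Of these 6 genes LTBP1 (edgeR adjusted p = 0.00119) and the RASSF1-domain gene (edgeR adjusted p = 0.00209) passed the test. Several gene models carry the symbols CREB1, LTBP1 and RASSF1-domain, and reads may be split between them.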

How the data were processed

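RNA from pools of about 100 sea lamprey embryos was sequenced in 12 libraries, 2 for each of 6 groups, and samples were grouped by their labels. The authors deposited 1 table of estimated counts per gene, called raw counts in the labels and used unnormalized; HISAT2 2.2.1, StringTie 2.2.3 and DESeq2 1.42.1 are named in the submitters' processing notes without role or order. That the counts are estimates is read from the values: 8 to 29 genes per library hold 1 to 3 counts beside 7129 to 10076 at 0. Genome build, strand setting and treatment of reads matching several places are not given in the sources used here. All 22407 genes matched the deposited annotation, which gives positions and a symbol for 14762.

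Counts were filtered with edgeR's filterByExpr, scaled by TMM and fitted with edgeR 4.0.16 (limma 3.58.1, R 4.3.3) quasi-likelihood models over all 12 libraries with 1 coefficient per group, leaving 6 residual and 1.69 prior degrees of freedom; 15615 genes were tested, with Benjamini-Hochberg adjusted p below 0.05 as the threshold. The labels name the replicates of a group as biological replicates. Their counts differed beyond sampling noise (chi-square per gene 22.93 for wildtype and 24.01 for the knockout). Since the counts are estimates, this does not by itself show that the libraries are separate. The test was checked on simulated counts with known changes. It recovered 67% of log2 fold changes of 2 and 38% of those of 1, and 2.78% of its calls were false. A gene that was not called may thus still have changed. The simulation changed 200 genes by 1 or 2 on the log2 scale and modelled no failed estimates. Most called changes here were smaller, so these rates do not carry over to them. Library totals at day 2 were 71641822 to 89061394 counts, and every group had 2 pools. DESeq2 1.42.0, limma voom, other scalings and filters, smaller sets of libraries and left-out libraries were run as alternatives.

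Named genes were KMT5A and SUV39H2; the 12 rising and 12 falling called genes with a symbol, no overlap of groups, at least 50 counts on average where they were higher, and the largest changes; the 4 with the highest CPM each way; up to 4 called members of each list; 3 genes each way listed at 0; all called genes with a symbol of the direct comparison of the knockouts; and genes of known KMT5A roles, from which the text takes a selection. Of the 96 named, 21 overlap a model on the opposite strand and 36 share their symbol with another tested gene. The comparison, the named genes and the 48 gene lists were chosen with earlier results of these data known, and 3 further lists after the values were seen. Members of a list are described by counts and medians, with no test of the list. The values of 1 gene that was not called are not reported here.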

Additional observations from a re-analysis of the deposited data

Results flagged for a closer look

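The KMT5A knockout effect differed between day 3 and day 2 in 1507 of 15615 genes by edgeR's test of the difference itself, the contrast that flagged every result here. Values are the day 3 log2 fold change minus that of day 2, and no explanation of any of them was tested.

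The difference was negative, a smaller rise or a fall by day 3, for PTGS2 at -4.05, LONRF1 at -1.87, AMDHD2 at -1.75, CHAC1 at -1.41, not2l at -1.18 and SLC26A5 at -1.08. Among chromatin and cell cycle genes it was -1.33 for KMT5A, -0.65 for SUV39H2, -0.38 for KMT5B of chromosome 24, -0.86 for MTF2, -0.39 for RRM2, -1.01 for HUS1 and -0.36 for CCNE1. It was -0.31 for HASPIN, -0.74 for USP15, -0.27 for PPP4R2, -1.28 for PARN, -0.63 for DCP1B and -0.68 for SMAD4.

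The difference was positive for the following genes, all of which fell at day 2. Among the largest falls it was 2.10 for SLC12A3, 2.18 for CXCR4, 2.08 for THBS1, 2.02 for GPR61, 1.48 for LYRM1 and 0.88 for SLC6A8. Of the translation genes, RPL8 had 0.70 and RPS16 0.61, though both were still called lower at day 3. RPL28 had 0.94, RPL7A 0.86, DDX54 0.81, NSA2 0.67, RIOK2 0.79, NCL 0.51, EIF3I 0.79, EIF3B 0.66 and MRPL27 1.16. For chaperones, the proteasome and energy genes it was 0.51 for HSPA8 of chromosome 32, 0.53 for CCT7, 0.52 for CCT5, 0.48 for DNAJA2, 0.45 for PSMC1 and 0.52 for ATP5F1A.

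Chromatin genes with a positive difference were H2AX at 0.52, PRDM2 at 0.48, SETD6 at 0.96, EZH2 at 0.36, SUZ12 at 0.56, INO80 at 0.78 and HDAC3 at 0.53. USP7 had 0.48, PCNA 0.58, SKP1 0.31, APEX1 0.70 and CDC25B 1.08. Among splicing and developmental genes the difference was 0.73 for HNRNPL, 0.49 for TGIF1, 0.53 for SOX11, 1.17 for TCF7L2 and 0.87 for ACVR1.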

How the results depend on the processing

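Of the named genes, 84 were called at day 2, and none of these reversed its direction in any alternative run; 35 lost the call with library size alone, 76 with a minimum log2 fold change of 1, 5 with the day 2 libraries only, 8 with the compared libraries only, and 23 to 29 without 1 library. The 1417 calls of the day 2 comparison were 328 with library size alone, 2405 in DESeq2, 2584 in limma voom, 2406 with the day 2 libraries only, 1991 with the compared libraries only, 28 with a minimum log2 fold change of 1, and 617 to 833 without 1 library. The higher share of calls, 29.1%, was 36.6% with library size alone, 41.0% in DESeq2, 44.6% in limma voom and 55.3% with the day 2 libraries only. The 23 genes that differed between the knockouts were 14 with library size alone, 3 with genes above 0 in every compared library, 103 in DESeq2, 11 in limma voom, 7 with the compared libraries only and 25 to 68 without 1 library. The 1507 genes that differed between the days were 264 with library size alone, 3190 in DESeq2 and 685 to 2245 without 1 library. The cause of these shifts was not tested.

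Same-numbered libraries were not paired by the labels, and their deviations correlated at -0.056. With the replicate number as a block the counts were 1241 at day 2 and 884 on the compared libraries only, 14 between the knockouts and 1372 between the days; 7 and 18 of the named calls were lost in the first and second of these fits.

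Library size alone moved the median of all genes above 0 from -0.04 to 0.0241, a reversal, with ribosomal proteins then at -0.62, splicing factors at -0.16 and proteasome subunits at -0.14; the higher-coordinate side of chromosome 21 reversed to 0.003. Uncalled values near 0 reversed too. KMT5A was 0.0045 with DESeq2 size factors and in DESeq2, 0.0439 with library size alone, 0.0181 with the day 2 libraries, 0.0182 with the compared libraries, 0.0183 with the replicate block on those, and -0.0446 to 0.0193 without 1 library, with 0.0191 a second reversal. DTL was 0.0215 with DESeq2 size factors and in DESeq2, 0.0609 with library size alone, 0.0133 with genes above 0 in every compared library, 0.0351 with the day 2 libraries, 0.0352 with the compared libraries with and without the block, and -0.0194 to 0.0281 without 1 library, with 0.0171 a second reversal; without 1 library TP53BP1 ran from -0.0199 to 0.0561 and ORC1 from -0.0098 to 0.0364, with -0.0026 a second reversal. What limits the calls, depth at 71641822 counts or more or the number of pools, was not tested.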

Other observations

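Genes that fell in the KMT5A knockout at day 2 were mostly genes whose level was higher at day 3. The KMT1 knockout libraries are on neither side of the KMT5A comparison with wildtype, though they enter its fit. In them the 984 genes called lower had a median log2 change of 1.92 from day 2 to day 3. Of these genes, 96.4% were higher at day 3. The 371 called higher had a median of -1.20, and 75.7% of them were lower at day 3. Genes that were not called had a median of -0.18 over 10227 genes, and 45.1% were higher at day 3. The KMT1 knockout libraries of day 2 also differed from wildtype, so this reference does not stand for undisturbed development.

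Called genes differed in structure in the deposited annotation. Genes called higher had a median of 11 exons, an exonic length of 6517 bases and a span of 26436 bases. Genes called lower had 9 exons, 3916.5 bases and 15524.5 bases, and genes that were not called 8, 3723 and 19784. The median level was 60.4 CPM for genes called higher, 68.9 CPM for genes called lower and 10.6 CPM for those not called. The part of level and length in these differences was not tested.

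Other lists were added after the values were seen. RNA exosome, helicase and RNA modification genes had 31 of 90 called lower, 34.4% beside the background of 9.89%, with a median of -0.21. None was higher in edgeR, DESeq2 or limma or at an unadjusted p below 0.05. Genes of membrane traffic had 15 of 195 called higher and 6 lower, with a median of 0.03. Together these are 10.8%, near the background of 9.89%. By chromosome, chromosome 71 had the lowest median, -0.26, with 19 of 91 genes called lower and none higher, 20.9% beside the background of 9.89%.

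On chromosome 21 at 5077785-5298723 of the deposited annotation lie 8 gene models without a symbol, 4 of them noncoding, picked after their values were seen. They are those above 0 in all day 2 libraries compared. PM11807 among them overlaps PM11806 and PM11809 on the opposite strand, so these models may share reads. Other tested models without a symbol in this interval, listed at 0 in a library, were left out, and EIF4G2 lies among the 8. Their log2 fold changes against wildtype ran from -2.01 to -0.68 and those against the KMT1 knockout from -1.02 to -0.67. In all 8 both KMT5A knockout pools lay below both wildtype and both KMT1 knockout pools, yet edgeR called 1 against wildtype and none against the KMT1 knockout, where 1 had an unadjusted p below 0.05 and DESeq2 and limma called none.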
